A study of Mus musculus with 6 samples.

Results

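Fox, Sox, T-box, GATA, KLF and TEAD genes encode transcription factors, and their levels were followed in 2H11 cells, an established mouse line, without and with BMP4. Members were taken by a rule on gene symbols from the deposited gene table. The families were chosen with earlier results of these data known, and the table lists only genes with a higher group mean of 0.502 FPKM or more. The choice was therefore not independent of the measured values. The rule found 50 of the 11754 listed genes, namely 21 Fox, 5 Sox, 4 T-box, 4 GATA, 12 KLF and 4 TEAD genes. The labels call the line endothelial, give its source as axillary lymph node and vascular epithelium, and give the strain as C3H/HeJ. All cells were starved. The 3 untreated samples then received no BMP4, and the 3 treated samples received BMP4 for 48 h. BMP4, a bone morphogenetic protein, is a secreted ligand whose receptors activate SMAD transcription factors. Nothing in the labels tells whether replicates were separate cultures, so a p-value here reflects only the spread among these 6 samples, which may be technical. All 6 samples come from this 1 line.

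The members of each family share a DNA-binding domain. Fox proteins carry a forkhead domain, Sox proteins an HMG box, T-box proteins the T-box, and GATA proteins zinc fingers that read the letters GATA. KLF proteins, the relatives of SP1, bind GC-rich and CACCC sequences through zinc fingers, and TEAD proteins bind DNA but need the cofactors YAP1 and TAZ to activate genes. In vessel walls, KLF2 and KLF4 are known as flow-induced factors of the endothelium, GATA2 as a factor of blood and endothelial cells, and FOXF2 as a factor of pericytes. BMP4 itself reaches genes when SMAD1, SMAD5 or SMAD9 bind with SMAD4 to GC-rich elements and SMAD boxes.

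Abundance was read as FPKM, fragments per kilobase of transcript scaled to library size, so levels of different genes can be set side by side. The number of reads behind a value is unknown, because the low values showed no steps of whole reads and the tables hold no counts, and no counting interval is given. Summed FPKM ran from 252329 to 273562 per sample. Of a list of 12 direct BMP-SMAD targets, 11 passed the filter on low values and were tested, and all 11 were called higher with BMP4. Hey1, Nog and Id4 passed the filter through their BMP4 values, so they could hardly have been tested without being higher. This list and the gene lists below were chosen with earlier results of these data known, so their counts and shares are no independent support. Of 14 endothelial markers, 4 had values (Cd34, Eng, Flt1 and Egfl7). The other 10, Pecam1, Cdh5, Kdr and Tek among them, were not analysed here. The listed endothelial markers summed to 68.5 to 75.4 FPKM in the untreated and 43.4 to 43.9 FPKM in the BMP4 samples. Of the 4, Cd34 was lower (52.2 ± 2.83 and 24.5 ± 0.547 FPKM), Flt1 was higher (0.924 ± 0.0677 and 1.96 ± 0.110 FPKM, above the filter through BMP4), and Eng (15.2 ± 1.21 and 15.2 ± 0.390 FPKM) and Egfl7 did not pass. All 10 fibroblast markers were listed and summed to 2963 to 3035 and to 1530 to 1540 FPKM, with 6 lower (Col3a1, Dpt, Dcn, Col1a1, Lum and Col1a2), 3 higher (Pdgfra, Mfap5 and Thy1) and Fbln1 not past. Smooth muscle and pericyte markers (6 of 8 listed) summed to 263 to 302 and to 334 to 362 FPKM, with 4 higher (Cnn1, Pdgfrb, Cspg4 and Tagln), 0 lower, and Des and Acta2 not past. Leukocyte markers (3 of 9) summed to 10.3 to 15.6 and to 12.1 to 13.7 FPKM, and none passed. Mesothelial markers (4 of 6) summed to 14.9 to 17.5 and to 0.913 to 1.48 FPKM. Only Msln among them passed the filter, and it was lower (14.3 ± 1.44 and 0.506 ± 0.0914 FPKM). Lymphatic endothelial markers (4 of 6) summed to 134 to 138 and to 108 to 112 FPKM. Of these, Pdpn was lower (97.4 ± 4.51 and 63.3 ± 2.61 FPKM) and Nrp2 was higher (35.3 ± 3.87 and 43.1 ± 2.61 FPKM). Vegfc did not pass, and Flt4 lay below the filter. In such bulk samples fewer cells of a type and less RNA per cell cannot be told apart. The part of these shifts in the results on the factors was not tested.

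The families were mostly higher with BMP4 where they moved, with a small set of falls. Of the 50 genes, 45 averaged 1 FPKM or more over all samples and were tested with limma on log2(FPKM + 1), with adjustment over all 10932 genes tested. Past an adjusted p of 0.05, 18 were higher, 4 were lower and 23 did not pass. The higher share was 40% beside 13.6% of all genes tested, and the lower share was 8.89% beside 14.3% of all genes tested (27.9% in either direction). The median log2 difference of the 45 was 0.18, beside -0.00134 over all genes tested. Groups that did not overlap were found for 23 higher and 6 lower genes, against 22.4% and 23.1% of all genes tested. A log2 difference of at least 1 was reached by 2 of the risers, Foxf2 and Foxp1, and by 0 of the fallers, beside 1.38% and 1.5% of all genes tested. A log2 difference on this scale understates the change of weakly expressed genes. Sox8 and Sox5 passed the filter through their BMP4 values, so the tested genes had partly to differ to be tested. Of the 22 calls, 15 held in every alternative except the filter of at least 5 FPKM, whereas Foxd1, Foxm1, Foxn3, Foxo4, Sox8, Tbx3 and Klf10 were lost when certain single samples were left out. Exons of 15 of the 50 genes overlap another annotated gene on the opposite strand, 9 of them among the 22 called.

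**Figure D1:**
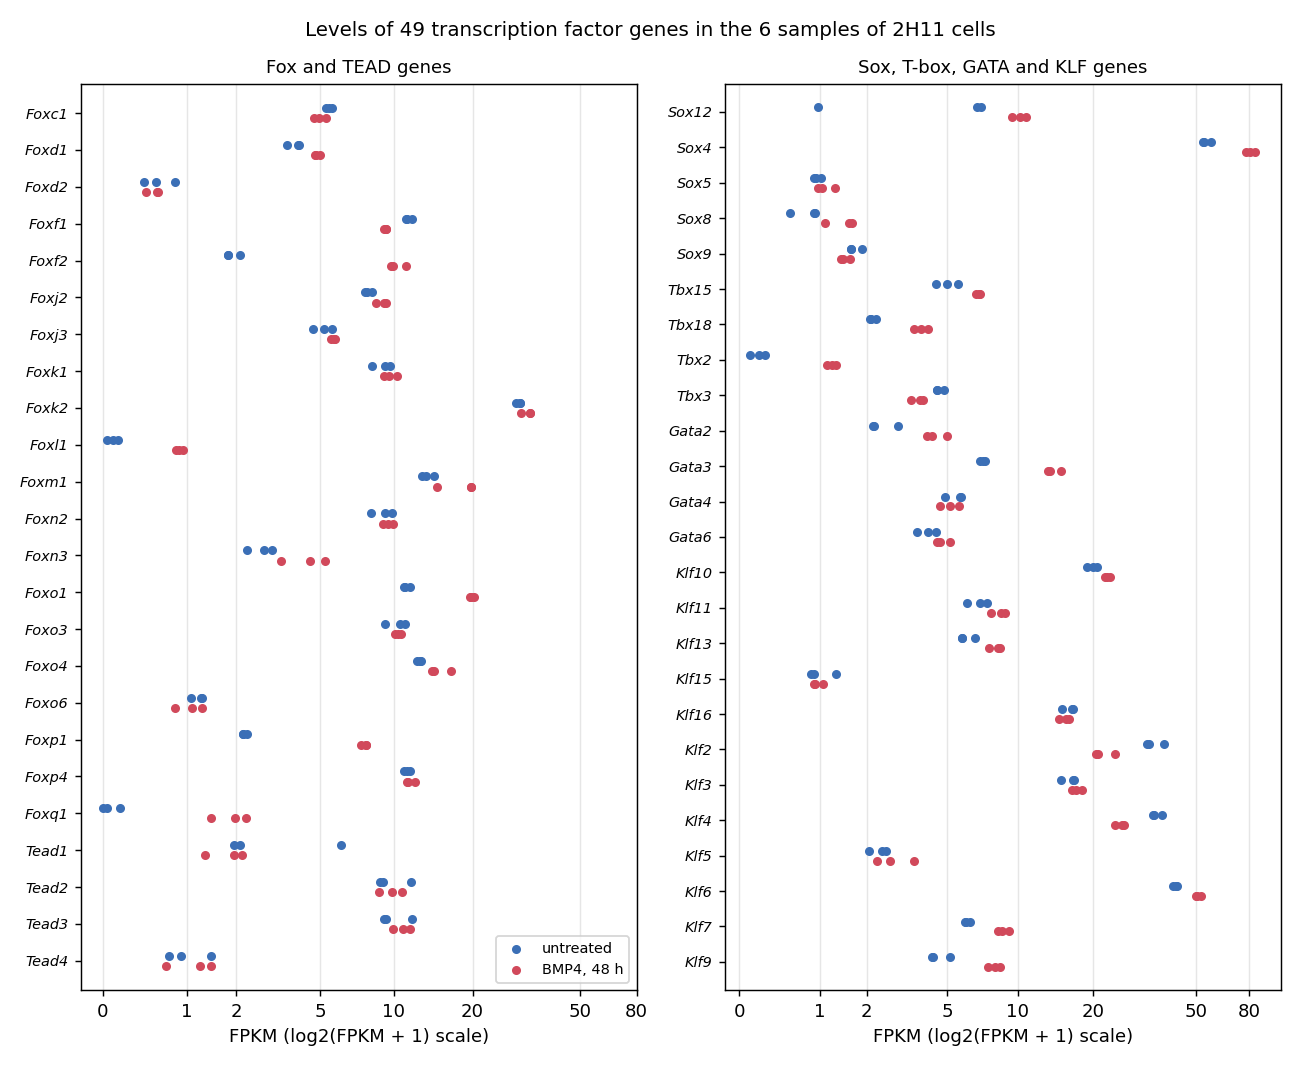
FPKM of 49 of the 50 genes on a log2(FPKM + 1) axis, with 1 blue point per untreated sample and 1 red point per BMP4 sample (3 each). Foxf2, Foxp1 and Gata3 show separated groups, with BMP4 to the right, Klf2 and Klf4 show the reverse, and single untreated samples of Sox12 and Tead1 lie far from the other 2.

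**Figure D2:**
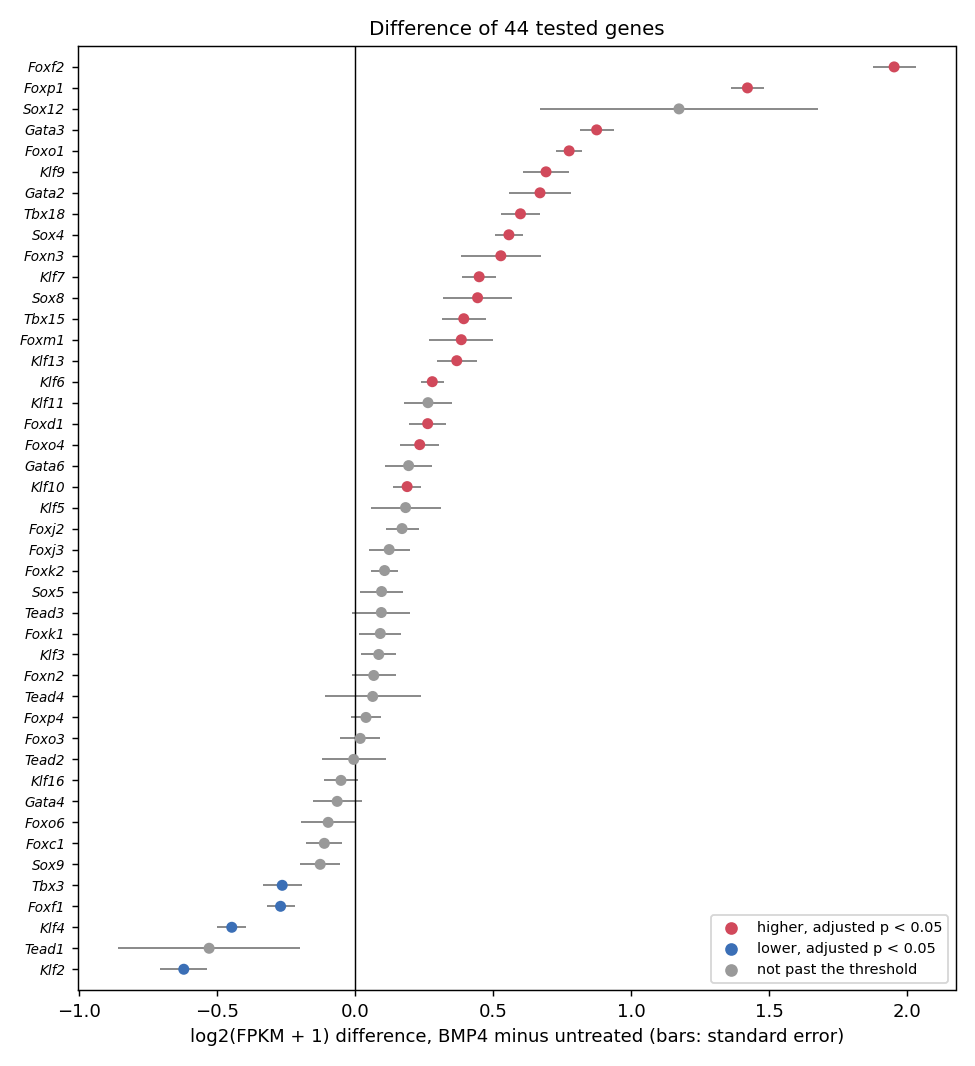
Difference in log2(FPKM + 1), BMP4 minus untreated, of 44 of the 45 tested genes, with standard errors as bars. The 18 red points passed the threshold as higher and the 4 blue points as lower. Foxf2 leads at 1.95 and Klf2 is lowest at -0.62, and the wide bars of Sox12 and Tead1 belong to genes with 1 discrepant untreated sample.

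As summed levels, the Fox genes stood at 155 ± 3.17 FPKM without and 194 ± 2.54 FPKM with BMP4 (mean ± SD, n = 3, here and below). The Sox genes stood at 63.0 ± 1.28 and 95.1 ± 4.25 FPKM, of which Sox4 made up most. GATA genes summed to 19.0 ± 0.560 and 28.3 ± 1.79 FPKM, and T-box genes to 11.9 ± 0.572 and 15.5 ± 0.224 FPKM. In these 4 families the lowest BMP4 sum lay above the highest untreated sum. The KLF sums overlapped, at 190.7 ± 3.60 and 191 ± 1.84 FPKM, and so did the TEAD sums, at 24.3 ± 3.15 and 23.5 ± 0.545 FPKM. These sums are given as values with no test.

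**Figure D3:**
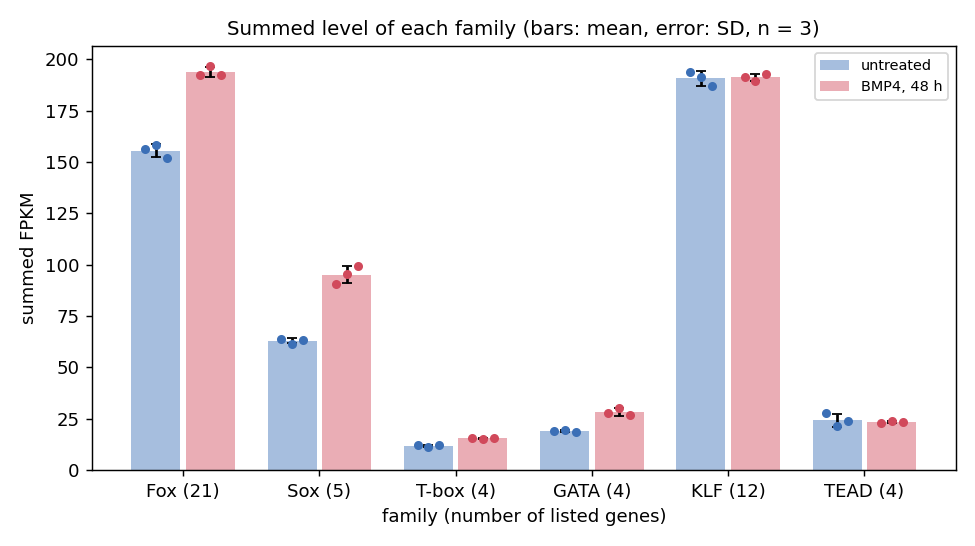
Summed FPKM of each family by sample (points), with bars for the mean and error bars for the SD of 3 samples, and the number of listed genes in brackets. Fox, Sox, T-box and GATA sums separate by group, whereas KLF sums lie between 187 and 194 FPKM in all 6 samples.

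Foxf2, a forkhead factor of mesenchyme and pericytes, had the largest difference in log2(FPKM + 1) among the tested genes of the families. It stood at 2.10, 1.80 and 1.80 FPKM in the untreated samples and at 9.72, 11.1 and 9.90 FPKM in the BMP4 samples. The groups lay far apart, a mean of 1.90 ± 0.169 against 10.2 ± 0.760 FPKM, or 5.39-fold (log2 difference 1.95, SE 0.08, limma adjusted p = 5.21e-06). Foxf1, its closest relative and a known Hedgehog-responsive factor of lung and gut mesenchyme, went the other way. It stood at 11.2, 11.7 and 11.2 FPKM untreated and at 9.12, 9.34 and 9.28 FPKM with BMP4. Every BMP4 sample lay below every untreated sample, and the difference was small (log2 difference -0.27, SE 0.05, limma adjusted p = 0.00745). Foxf2 therefore made up 14.3% ± 1.26 of the summed Foxf1 and Foxf2 FPKM without and 52.5% ± 1.58 with BMP4, and that sum was 13.3 ± 0.279 and 19.5 ± 0.852 FPKM.

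Foxf2 (GRCm38 chromosome 13, 31625816 to 31631403) lies between the forkhead genes Foxq1, whose start is 67.5 kb away, and Foxc1, whose start is 181 kb away. Foxc1, a factor of head mesenchyme, eye and vessels, stood at 5.31, 5.46 and 5.60 FPKM untreated and at 4.95, 4.68 and 5.30 FPKM with BMP4. Its BMP4 samples were all slightly below the untreated ones, and the difference did not pass (log2 difference -0.11, SE 0.06, limma adjusted p = 0.242). Foxq1 is a forkhead gene known from satin hair in mice. It was listed at 0.155, 0.0333 and 0 FPKM untreated and at 1.96, 1.43 and 2.26 FPKM with BMP4. It lay below the filter on low values and was not tested. The deposited table lists genes with a higher group mean of 0.502 FPKM or more, so Foxq1 is listed through its BMP4 values. Foxq1 shares 3200 exonic bases with A530084C06Rik on the opposite strand (0.0684 FPKM untreated, 0.902 FPKM with BMP4). The libraries were made strand-specific per the labels' protocols, but the sources used here do not give whether strand was used in quantifying, so reads of these 2 genes may not be told apart. The next listed gene beyond Foxc1, the sugar enzyme gene Gmds, stood at 10.8 ± 0.829 and 11.3 ± 0.295 FPKM and did not pass (limma adjusted p = 0.539).

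The promoters of Foxf2 and Foxc1 are shown because the 2 genes are neighbours, of which Foxf2 passed the test and Foxc1 did not. They run from 250 bases before to 50 bases after the start in RefSeq, build GRCm38.p6, written 5′ to 3′ on the strand of the gene. Capitals mark, on either strand, the GC-rich SMAD1/5 element GGCGCC, the related GGAGCC, the SMAD box CAGACA and the KLF box CACCC.
Foxf2 (chr13:31625566-31625865, plus strand): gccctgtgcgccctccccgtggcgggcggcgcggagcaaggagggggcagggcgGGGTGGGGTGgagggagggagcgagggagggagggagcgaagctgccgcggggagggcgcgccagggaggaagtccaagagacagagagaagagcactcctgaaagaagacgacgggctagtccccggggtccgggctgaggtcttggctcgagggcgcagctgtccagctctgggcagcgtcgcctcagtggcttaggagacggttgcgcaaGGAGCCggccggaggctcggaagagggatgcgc
Foxc1 (chr13:31806396-31806695, plus strand): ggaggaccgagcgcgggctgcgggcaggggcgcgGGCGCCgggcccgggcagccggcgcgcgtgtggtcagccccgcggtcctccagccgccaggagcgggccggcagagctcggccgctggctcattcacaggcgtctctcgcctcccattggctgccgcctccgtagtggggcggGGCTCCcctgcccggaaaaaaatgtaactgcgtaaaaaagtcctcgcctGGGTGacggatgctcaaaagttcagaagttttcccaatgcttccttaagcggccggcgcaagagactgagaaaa
In these windows Foxf2 held 1 GGAGCC and 2 CACCC and no GGCGCC. Foxc1 held 1 GGCGCC, 1 GGAGCC and 1 CACCC, with a GC content of 67.3% beside 71.3% for Foxf2.

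A like arrangement of forkhead neighbours lies on chromosome 8, where Foxf1 (121084386 to 121088144) and Foxl1 start 43.6 kb apart. Foxl1, a marker of gut mesenchyme beneath the epithelium, stood at 0.0887, 0.0401 and 0.134 FPKM untreated and at 0.832, 0.878 and 0.944 FPKM with BMP4. These levels lie below the filter, Foxl1 is listed through its BMP4 values, and it was not tested. Mthfsd, which sits between Foxf1 and Foxl1, fell from 2.83 ± 0.0924 to 1.87 ± 0.152 FPKM (log2 difference -0.42, SE 0.07, limma adjusted p = 0.00445). Of the other listed genes within 500 kb on chromosome 8, Gm27021 and Zcchc14 were higher (limma adjusted p = 0.014 and 0.00812). The rest did not pass. The 2 neighbourhoods, with a window of 500 kb, were chosen after these values were seen.

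**Figure D4:**
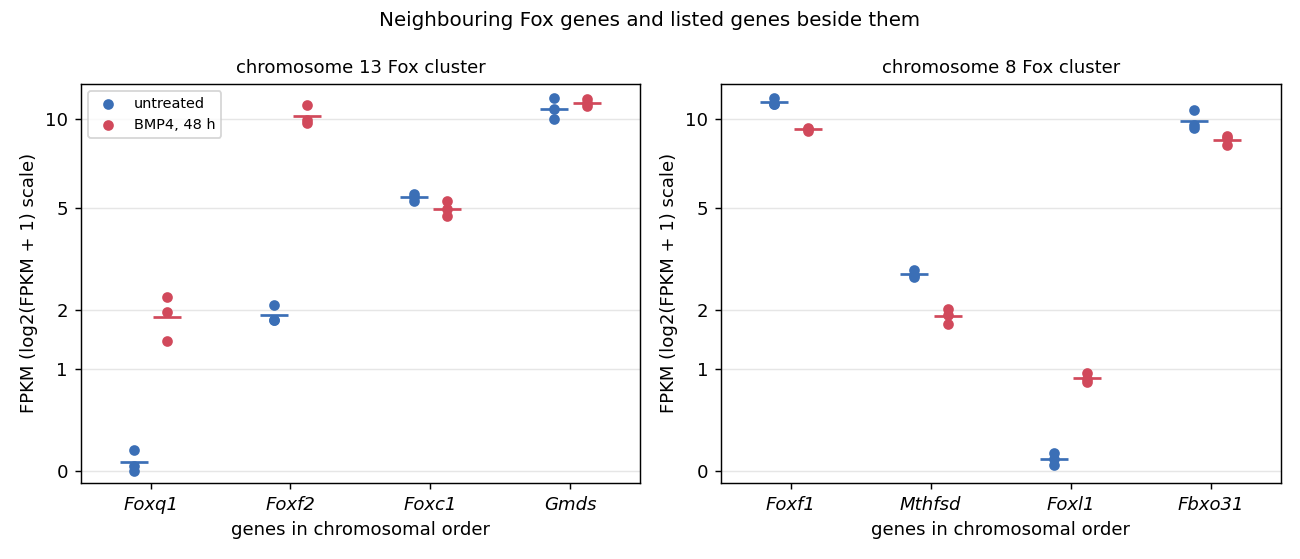
FPKM of Fox genes and some listed genes beside them, in chromosomal order, on chromosome 13 (left) and chromosome 8 (right). The axis is log2(FPKM + 1), with points for samples and lines for group means. A530084C06Rik on chromosome 13 is not drawn, and on chromosome 8 only Foxf1, Mthfsd, Foxl1 and Fbxo31 are drawn. Foxq1 and Foxf2 separate upward with BMP4 beside Foxc1 and Gmds, and Foxl1, untested like Foxq1, lies higher with BMP4 beside Foxf1 and Mthfsd, which lie lower.

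Foxp1, a forkhead repressor that pairs with its relatives FOXP2 and FOXP4, stood at 2.19, 2.18 and 2.27 FPKM untreated and at 7.75, 7.37 and 7.71 FPKM with BMP4. The 3 replicates of each group were almost level, and the means differed 3.44-fold (log2 difference 1.42, SE 0.06, limma adjusted p = 6.14e-06). Foxp4 stood at 11.2 ± 0.313 and 11.6 ± 0.408 FPKM and did not pass (limma adjusted p = 0.622). As a share of the summed Foxp1 and Foxp4 FPKM, Foxp4 was 83.5% ± 0.703 without and 60.3% ± 0.745 with BMP4.

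Foxp1 was listed with 10 transcripts, and the values assigned to them were far less even than those of the gene. Foxp1-201, whose start lies farthest upstream among the listed ones, stood at 1.35, 0.801 and 0.825 FPKM untreated and at 10.5, 12.4 and 6.21 FPKM with BMP4 (log2 difference 2.39, SE 0.27, limma adjusted p = 0.00591 over all transcripts tested). In BMP4 replicates 1 and 2 its values exceed those of the whole gene (7.75 and 7.37 FPKM). Transcript values therefore do not add up to the gene value and cannot be read as parts of it. Foxp1-023 fell, from 1.60, 1.64 and 1.80 FPKM to 0.366, 0.639 and 0.656 FPKM (log2 difference -0.79, SE 0.16, limma adjusted p = 0.0416). It is among 3 transcripts of the families called lower with all samples, and 1 to 2 were called lower with single samples left out. The groups of neither transcript overlapped. Foxp1-021 stood at 2.34, 4.04 and 1.90 FPKM untreated and at 9.46, 1.52 and 13.3 FPKM with BMP4, so the second BMP4 sample lay below all untreated ones. Against the rest of the gene, Foxp1-023 was lower by 1.81 on the log2 scale (unadjusted p = 0.00087, limma adjusted p = 0.163). Foxp1-019 was lower by 1.03 (unadjusted p = 0.013, limma adjusted p = 0.63) and Foxp1-201 higher by 2.38 (unadjusted p = 0.0166, limma adjusted p = 0.702). None of these passed after adjustment. Foxp1-006, Foxp1-007, Foxp1-011 and Foxp1-020 lay below the filter, with every BMP4 sample below every untreated one. The first 3 of these are listed through their untreated values. The starts of Foxp1-023, Foxp1-021 and Foxp1-011 lie inside the same RefSeq promoter window (chromosome 6, 99028249 to 99028548), and that of Foxp1-004 lies inside another. That of Foxp1-201 (99435345) is 85649 bases from the nearest one. Foxp1-021, which shares the window of Foxp1-023, had means of 2.76 ± 1.13 FPKM untreated and 8.09 ± 6.01 FPKM with BMP4 and did not pass (limma adjusted p = 0.48). The Foxp1 transcripts were singled out after their values were seen.

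**Figure D5:**
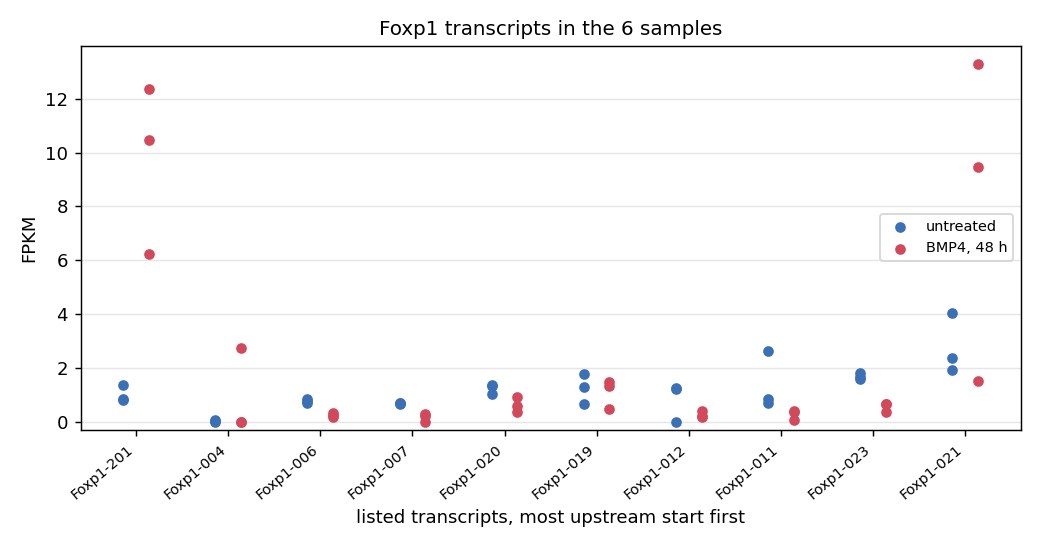
FPKM of the 10 listed Foxp1 transcripts in the 6 samples, ordered from the most upstream start. Foxp1-201 lies between 6.21 and 12.4 FPKM in the BMP4 samples against 0.801 to 1.35 FPKM untreated, and Foxp1-021 spreads from 1.52 to 13.3 FPKM among the BMP4 samples.

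Over the families, 91 transcripts were listed and 66 were tested, of which 10 were higher and 3 lower, beside 4.03% and 4.53% of all transcripts tested (8.55% in either direction). The 3 lower ones were Klf2-001, Klf4-001 and Foxp1-023. With single samples left out the higher count ran from 5 to 8 and the lower from 1 to 2, and with the replicate block they were 5 and 0. In the test of balance between transcripts of a gene, 0 of 35 transcripts of 13 genes passed with limma, beside 0.244% over the table. An unadjusted p under 0.05 was found for 5, namely Foxj3-001, Foxj3-002, Foxp1-019, Foxp1-023 and Foxp1-201. Transcripts of 1 gene are not separate results, and the 2 of Foxj3 are 1 contrast read from both sides. No share over all transcripts is given for the unadjusted p. Of the 50 genes, 30 had 1 listed transcript and could not enter it.

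The FOXO proteins are kept out of the nucleus when AKT phosphorylates them and otherwise drive stress, cell-cycle arrest and insulin-receptor feedback genes. Foxo1 stood at 10.9, 11.1 and 11.5 FPKM untreated and at 19.6, 20.2 and 19.8 FPKM with BMP4. The groups were tight and separate (1.78-fold, log2 difference 0.78, SE 0.05, limma adjusted p = 3.77e-05). Foxo4 rose from 12.6 ± 0.277 to 15 ± 1.41 FPKM (log2 difference 0.23, SE 0.07, limma adjusted p = 0.0479), close to the threshold, and it was lost whenever any 1 of the 6 samples was left out (adjusted p 0.05 to 0.121). Foxo3 and Foxo6 stood at 10.2 ± 0.932 and 1.19 ± 0.109 FPKM untreated and 10.4 ± 0.297 and 1.06 ± 0.232 FPKM with BMP4 and did not pass. Foxo1 overlaps an antisense gene, Gm20402, by 674 exonic bases.

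Of a fixed list of FOXO targets, 6 of 19 tested were higher (31.6%, beside 13.6% of all genes tested) and 1 lower (5.26%, beside 14.3%), with a median log2 difference of 0.23. Cited2, a coactivator-binding regulator, rose from 43.9 ± 2.65 to 99.96 ± 3.82 FPKM (log2 difference 1.17, limma adjusted p = 1.42e-05), and the insulin-receptor adaptor Irs2 rose from 3.46 ± 0.304 to 6.56 ± 0.173 FPKM (0.76, limma adjusted p = 0.000284). The stress protein gene Sesn1 rose by 0.37 and the PI3K inhibitor gene Pik3ip1 by 1.27 on the log2 scale (limma adjusted p = 0.000744 and 0.000849). Bcl6, a transcriptional repressor, fell from 8.11 ± 0.111 to 6.27 ± 0.345 FPKM (limma adjusted p = 0.00686). The remaining 12 did not pass.

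Foxm1, the forkhead factor of late cell-cycle genes, stood at 14.4, 12.8 and 13.3 FPKM untreated and at 14.7, 19.7 and 19.8 FPKM with BMP4. The first BMP4 sample lay just above the highest untreated one and the other 2 well above it (log2 difference 0.38, SE 0.12, limma adjusted p = 0.0456). Without single samples the adjusted p ranged from 0.00421 to 0.141, lowest without the first BMP4 sample and highest without the second. Of 20 FOXM1 targets, 3 were higher and 0 were lower with limma (lower beside 14.3% of all genes tested), and their median log2 difference was 0.14. At an unadjusted p under 0.05 the counts were 6 and 0, beside 2155 higher and 2208 lower of the 10932 genes tested. The higher share of 15% is near the 13.6% of all genes tested, and the higher count ran from 2 to 5 with single samples left out. The phosphatase gene Cdc25b rose from 23.4 ± 0.823 to 32.2 ± 0.669 FPKM (limma adjusted p = 0.000484), and the centromere genes Cenpa and Cenpe rose by 0.41 and 0.46 on the log2 scale (limma adjusted p = 0.0106 and 0.0172). Bub1b, a spindle checkpoint gene, was next in order of p at 23.5 ± 1.29 and 27.2 ± 1.72 FPKM and did not pass (limma adjusted p = 0.0558).

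Among the other Fox genes, Foxn3, a repressor linked to cell-cycle checkpoints, stood at 2.27, 2.79 and 3.05 FPKM untreated and at 4.53, 5.24 and 3.35 FPKM with BMP4. The lowest BMP4 sample was not far above the highest untreated one (log2 difference 0.53, SE 0.15, limma adjusted p = 0.0336), and the adjusted p ran from 0.00975 to 0.103 with single samples left out. Foxd1, a factor of kidney stroma, rose from 3.87 ± 0.270 to 4.84 ± 0.119 FPKM (limma adjusted p = 0.0261, and 0.0376 to 0.0934 with single samples left out). Foxk2 was the most abundant Fox gene at 29.6 ± 0.573 and 32.0 ± 1.33 FPKM; it and its relative Foxk1, which are known in sugar metabolism and autophagy, did not pass. Foxj2, Foxj3 and Foxn2 lay between 5.15 and 9.50 FPKM as group means and did not pass either, and Foxd2 (0.595 and 0.523 FPKM) lay below the filter.

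Sox4, an HMG-box factor of progenitor cells and of epithelial-mesenchymal transition, was the most abundant gene of the 50 in both groups. It stood at 53.2, 57.0 and 53.8 FPKM untreated and at 77.8, 80.7 and 84.2 FPKM with BMP4. All BMP4 samples lay well above the untreated ones (1.48-fold, log2 difference 0.56, SE 0.05, limma adjusted p = 0.000229). The lincRNA gene Gm26735 covers 2616 exonic bases of Sox4 on the opposite strand. Its relative Sox12 read 7.03, 0.971 and 6.74 FPKM untreated and 9.52, 10.3 and 10.9 FPKM with BMP4. The second untreated sample stands apart from the other 2, and the difference did not pass with it (log2 difference 1.17, SE 0.50, limma adjusted p = 0.129) and passed without it (0.51, adjusted p = 0.00706).

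Sox8, a neural crest and gonad factor, stood at 0.924, 0.913 and 0.544 FPKM untreated and at 1.10, 1.63 and 1.58 FPKM with BMP4. The groups did not overlap but lay close at this low level (log2 difference 0.44, SE 0.13, limma adjusted p = 0.0376, and 0.0268 to 0.121 with single samples left out). Sox9, the master factor of cartilage and a close relative of Sox8, stood at 1.70 ± 0.148 and 1.47 ± 0.103 FPKM and did not pass (limma adjusted p = 0.239), nor did its cartilage partner Sox5 (0.959 ± 0.0616 and 1.10 ± 0.159 FPKM). Of 13 SOX9 cartilage targets, 2 were listed. Col11a1, a minor fibrillar collagen, fell from 12.8 ± 1.79 to 8.19 ± 0.90 FPKM (limma adjusted p = 0.00885), and Matn3, a cartilage matrix protein gene, rose from 1.39 ± 0.238 to 2.35 ± 0.290 FPKM (limma adjusted p = 0.0125). The other 11, Col2a1 and Acan among them, were not analysed here.

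Tbx18 and Tbx15, closely related T-box repressors of mesenchyme and limb and, for Tbx18, of the epicardium, were both higher with BMP4. Tbx18 stood at 2.12, 2.25 and 2.09 FPKM untreated and at 3.49, 3.77 and 4.09 FPKM with BMP4 (log2 difference 0.60, SE 0.07, limma adjusted p = 0.000969). Tbx15 stood at 5.56, 4.45 and 4.99 FPKM untreated and at 6.96, 6.91 and 6.72 FPKM with BMP4 (log2 difference 0.39, SE 0.08, limma adjusted p = 0.0103). Neither gene had overlapping groups, and Tbx15 was the most abundant T-box gene in both. Tbx3, a repressor known in limb, heart and breast, stood at 4.48, 4.50 and 4.85 FPKM untreated and at 3.88, 3.38 and 3.76 FPKM with BMP4. The fall was small (log2 difference -0.26, SE 0.07, limma adjusted p = 0.0294). It was not called when the samples were rescaled to equal sums (adjusted p = 0.0628), and the adjusted p ran from 0.0472 to 0.103 with single samples left out. Tbx2, the close relative of Tbx3, lay below the filter at 0.246, 0.102 and 0.184 FPKM untreated and at 1.13, 1.30 and 1.22 FPKM with BMP4. It was not tested and is listed through its BMP4 values. The summed Tbx2 and Tbx3 FPKM was 4.79 ± 0.219 and 4.89 ± 0.181, of which Tbx3 made up 96.3% ± 1.49 without and 75.0% ± 2.68 with BMP4.

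Of the 4 GATA genes, Gata2 and Gata3 passed the test, both as higher, and Gata4 and Gata6 did not. Gata3, a factor of T cells, sympathetic neurons and breast epithelium, stood at 7.18, 7.29 and 6.96 FPKM untreated and at 13.3, 15 and 13.5 FPKM with BMP4. Its groups lay far apart (1.95-fold, log2 difference 0.88, SE 0.06, limma adjusted p = 7.11e-05). Gata2, a factor of blood stem cells and endothelium, stood at 2.19, 2.93 and 2.16 FPKM untreated and at 4.27, 5.01 and 4.04 FPKM with BMP4 (1.83-fold, log2 difference 0.67, SE 0.11, limma adjusted p = 0.00461). Gata2 was 25.2% ± 2.98 of the summed Gata2 and Gata3 FPKM without and 24.1% ± 1.05 with BMP4. The heart and endoderm factors Gata4 (5.43 ± 0.490 and 5.15 ± 0.505 FPKM) and Gata6 (4.05 ± 0.429 and 4.76 ± 0.334 FPKM) did not pass (limma adjusted p = 0.622 and 0.137). Of 7 GATA cofactors tested, 0 were called with limma, beside 27.9% of all genes tested called in either direction. At an unadjusted p under 0.05 the count was 1, beside 2155 higher and 2208 lower of the 10932 genes tested. Counts from only 7 cofactors say little beside these shares. The first in order of p were Lmo4 (7.67 ± 1.48 and 9.89 ± 0.673 FPKM), Med1, Ep300 and Zfpm2, the gene of the GATA partner FOG2, with adjusted p from 0.0768 to 0.397.

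The Gata3 promoter is shown because Gata3 had the largest log2 difference of the GATA genes. It has 2 GGCGCC, 1 GGAGCC, 1 CAGACA and 3 CACCC, in capitals on either strand as above.
Gata3 (chr2:9878551-9878850, minus strand): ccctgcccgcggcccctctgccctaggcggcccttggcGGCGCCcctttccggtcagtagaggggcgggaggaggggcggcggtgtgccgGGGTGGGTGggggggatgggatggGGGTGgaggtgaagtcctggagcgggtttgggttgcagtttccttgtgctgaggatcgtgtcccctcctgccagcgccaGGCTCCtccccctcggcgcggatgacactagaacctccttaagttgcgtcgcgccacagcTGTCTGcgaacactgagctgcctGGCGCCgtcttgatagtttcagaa
The window lies inside the deposited span of the gene (chromosome 2, 9857078 to 9890034).

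Klf2 and Klf4, the flow-induced factors that hold the endothelium quiescent, were the 2 KLF genes that fell. Klf2 stood at 37.8, 33.1 and 32.4 FPKM untreated and at 21.0, 20.6 and 24.5 FPKM with BMP4 (1.56-fold lower, log2 difference -0.62, SE 0.09, limma adjusted p = 0.00192). Klf4 stood at 37.2, 34.5 and 34.3 FPKM untreated and at 24.5, 26 and 26.4 FPKM with BMP4 (1.38-fold lower, log2 difference -0.45, SE 0.05, limma adjusted p = 0.000927). The groups of both genes lay well apart, and their summed level was 69.8 ± 4.54 FPKM without and 47.7 ± 2.87 FPKM with BMP4. Both had a level of at least 20.6 FPKM in every sample. Of the listed endothelial markers, Cd34 was lower in the same BMP4 samples and Flt1 higher, as given above, and their part in the fall was not tested. The promoters of Klf2 and Klf4 are shown because the 2 genes fell together.
Klf2 (chr8:72318812-72319111, plus strand): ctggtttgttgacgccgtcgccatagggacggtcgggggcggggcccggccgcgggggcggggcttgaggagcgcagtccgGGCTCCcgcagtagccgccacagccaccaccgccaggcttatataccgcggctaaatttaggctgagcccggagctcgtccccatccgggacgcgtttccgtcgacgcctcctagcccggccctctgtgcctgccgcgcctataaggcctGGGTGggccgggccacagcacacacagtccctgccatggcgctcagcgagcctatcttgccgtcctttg
Klf4 (chr4:55532426-55532725, minus strand): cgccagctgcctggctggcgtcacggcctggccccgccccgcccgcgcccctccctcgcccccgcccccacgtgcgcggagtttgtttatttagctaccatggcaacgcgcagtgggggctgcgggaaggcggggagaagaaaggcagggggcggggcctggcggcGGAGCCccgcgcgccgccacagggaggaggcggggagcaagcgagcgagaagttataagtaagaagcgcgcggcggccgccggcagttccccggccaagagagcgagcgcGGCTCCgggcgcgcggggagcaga
Klf2 held 1 GGAGCC and 1 CACCC in this window, Klf4 held 2 GGAGCC, and neither held GGCGCC or CAGACA.

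The KLF genes that rose were Klf6, Klf7, Klf9, Klf10 and Klf13. Klf9, a hormone-responsive repressor, stood at 4.28, 5.14 and 4.32 FPKM untreated and at 8.43, 7.53 and 8.02 FPKM with BMP4 (1.75-fold, log2 difference 0.69, SE 0.08, limma adjusted p = 0.00091). Klf7, known from neurons and fat cells, stood at 6.0, 6.28 and 6.06 FPKM untreated and at 8.65, 9.25 and 8.26 FPKM with BMP4 (1.43-fold, log2 difference 0.45, SE 0.06, limma adjusted p = 0.00192). In both genes the BMP4 samples lay clear of the untreated ones, although the lincRNA gene Gm26649 covers 3196 exonic bases of Klf7 on the opposite strand. Klf13, a relative of Klf9, stood at 6.60, 5.79 and 5.82 FPKM untreated and at 8.47, 8.25 and 7.63 FPKM with BMP4 (log2 difference 0.37, SE 0.07, limma adjusted p = 0.00904). Klf6, an injury-induced factor and the most abundant KLF gene, stood at 41.0, 41.9 and 42.3 FPKM untreated and at 52.2, 50.1 and 50.4 FPKM with BMP4 (log2 difference 0.28, SE 0.04, limma adjusted p = 0.00259). These rises were smaller than that of Klf9 in log2 terms, and no groups overlapped. Klf10, known as an early gene of TGF-beta, rose from 19.9 ± 0.872 to 22.8 ± 0.556 FPKM (limma adjusted p = 0.0313, and 0.0462 to 0.0981 with single samples left out). Its relative Klf11 (6.82 ± 0.687 and 8.38 ± 0.594 FPKM) did not pass (limma adjusted p = 0.0581), and passed without the last untreated sample (adjusted p = 0.0419). Klf3, Klf5 and Klf16 did not pass, and Klf15 (1.02 ± 0.237 and 0.962 ± 0.0853 FPKM) lay below the filter.

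Of 10 SP factors and KLF partners tested, 2 were higher (20%) and 1 lower (10%), near the 13.6% and 14.3% of all genes tested, and without BMP4 replicate 1 or 2 the counts were 1 and 0. With the replicate block they were 2 and 0. Sp4 stood at 0.936 ± 0.0957 and 1.69 ± 0.124 FPKM (limma adjusted p = 0.00331) and passed the filter through its BMP4 values. Wwp1, a ubiquitin ligase known to act on KLF5, rose from 8.61 ± 1.09 to 11.5 ± 0.477 FPKM (limma adjusted p = 0.0183). The deacetylase gene Hdac1 fell from 32.4 ± 1.76 to 27.2 ± 0.887 FPKM (limma adjusted p = 0.0153). The corepressor gene Ctbp2 was next in order of p and did not pass (limma adjusted p = 0.0912).

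The TEAD genes did not pass, 0 of 4 with limma, beside 27.9% of all genes tested called in either direction. At an unadjusted p under 0.05 they were 0 as well, beside 2155 higher and 2208 lower of the 10932 genes tested. With only 4 genes, a count of 0 says little beside these shares. Tead3 (10.1 ± 1.49 and 10.8 ± 0.844 FPKM) and Tead2 (9.85 ± 1.58 and 9.76 ± 1.0 FPKM) were the most abundant. Tead1 read 6.12, 2.09 and 1.96 FPKM untreated and 1.96, 2.16 and 1.32 FPKM with BMP4. Its first untreated sample stands apart, with 6.34 FPKM assigned there to the transcript Tead1-201, and the log2 difference of -0.53 became -0.12 without it (adjusted p = 0.276 and 0.589). Tead4 was low, at 1.03 ± 0.375 and 1.12 ± 0.382 FPKM.

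The partners of TEAD and the genes of the Hippo pathway, which restrains YAP1 and TAZ by phosphorylation, moved in both directions. Of 21 tested, 5 were higher (23.8%, beside 13.6% of all genes tested) and 4 lower (19%, beside 14.3%), with a median log2 difference of 0.04. With single samples left out the higher count ran from 3 to 5 and the lower from 2 to 5, and the lower count was 2 after rescaling to equal sums, without the variance trend or with the replicate block. Yap1 rose from 16.8 ± 0.319 to 20.5 ± 0.501 FPKM (limma adjusted p = 0.00503), and Wwtr1, which encodes TAZ, rose from 44.7 ± 3.18 to 56.6 ± 0.462 FPKM (limma adjusted p = 0.0055). The scaffold gene Sav1 rose by 0.24 on the log2 scale (limma adjusted p = 0.00722). Vgll3, a TEAD cofactor, fell from 31.0 ± 2.54 to 23.7 ± 1.30 FPKM (limma adjusted p = 0.00869), as did the Hippo genes Wwc1, Stk3 and Frmd6 (limma adjusted p = 0.011, 0.0386 and 0.0496).

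Of a YAP/TEAD target signature known from human cells, 7 of 19 tested were higher (36.8%, beside 13.6% of all genes tested) and 3 lower (15.8%, near the 14.3% of all genes tested), with a median log2 difference of 0.12. Foxf2 is one of the 7. Ctgf, a matricellular protein gene, rose from 3.34 ± 0.382 to 26.4 ± 1.86 FPKM (log2 difference 2.66, limma adjusted p = 2.21e-06), and the tissue factor gene F3 rose from 20.2 ± 0.879 to 43.3 ± 1.74 FPKM (1.06, limma adjusted p = 1.46e-05). The receptor kinase gene Axl fell from 97.8 ± 2.63 to 71.6 ± 0.451 FPKM (limma adjusted p = 0.000256), and Ankrd1 and Nuak2 fell by 0.48 and 0.37 on the log2 scale (limma adjusted p = 0.00165 and 0.0273).

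The RefSeq table held 35 promoters of 30 of the 50 genes. Their median GC content was 69.3%, against 52.7% over the 32851 promoters of the table. GGCGCC was found in 25.7% of them against 11.9% of all promoters, and GGAGCC in 68.6% against 30.8%. CAGACA went the other way, at 14.3% against 21%, and CACCC was near the table's share, at 62.9% against 57.5%. Among the families' own motifs, the forkhead letters GTAAACA were in 5.71% against 3.65%, the SOX letters AACAAT in 5.71% against 10.7%, and the TEAD letters CATTCC in 20% against 14.7%. The GATA letters AGATAA were in 0% against 11.2%, and the T-box letters GGTGTGA in 2.86% against 3.98%. GGCGCC was in 5 of the 17 promoters of genes that rose, 0 of the 2 of genes that fell and 3 of the 14 of genes that did not pass. GGAGCC was in 8 of the 17, 2 of the 2 and 13 of the 14. These are counts of windows, not of genes. Foxp1 and Gata2, which rose, and Tead3, which did not pass, have several windows each. Those of Tead3 overlap, so a site can be counted more than once. Motifs were searched on both strands in 300-base windows, and GGCGCC reads the same on both. The higher GC content of these windows goes with the GC-rich motifs, its part was not tested, and a match or its lack in this window says nothing of binding.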

How the data were processed

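Polyadenylated RNA of 3 untreated and 3 BMP4-treated samples was sequenced with strand-specific Roche KAPA libraries, per the labels' protocols. The submitters' processing notes name StringTie, HISAT2, cutadapt and FastQC and the mouse build GRCm38, while the sources used here give no versions or settings and no word on the use of strand. The authors deposited FPKM values of genes and of transcripts in separate tables, per the file headers. Both held 1 emptied line, left out here. In the gene table the higher of the group means was never under 0.502 FPKM, so weaker genes were not analysed here. No count test was run, since the tables hold no counts and no steps of whole reads were found (17% to 24% of the 100 lowest values per sample lay within 0.05 of a step).

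From the FPKM, log2(FPKM + 1) was computed, features with a mean of at least 1 FPKM were kept, and the groups were compared with limma (version 3.58.1, R version 4.3.3), using its two-sided moderated test with an intensity trend, Benjamini-Hochberg adjustment over 10932 genes or 17213 transcripts and a threshold of 0.05. The balance test applied limma to the log2 value of a transcript minus that of the rest of its gene. The tests were checked on simulated data. The labels state no link between same-numbered samples, so no block was used in the main test. Exon overlaps are from GENCODE M21, which held 99.8% of the gene identifiers, and promoters from RefSeq, with 30 of the 50 genes matched by symbol. A comparison of protein sequences was not run. Of the 50 genes, 1 enters the counts and sums but is not reported here.

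The members and gene lists were chosen with earlier results of these data known. The genes named were every tested member past the threshold, with values per sample for up to 15 in each direction by size of the log2 difference, the most abundant member of each family, and, of each list, up to 4 genes in order of adjusted p plus those against its majority. Further names were chosen after their values were seen. Alternatives varied the filter, the pseudocount, the scaling, the variance trend, the replicates and the block.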

Additional observations from a re-analysis of the deposited data

How the results depend on the processing

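The number of members called ran from 15 to 25 over the alternatives, against 22 as reported; 25 were called with no filter, which added Foxq1, Foxl1 and Tbx2, all listed through their BMP4 values, and 15 with a filter of at least 5 FPKM, which tests fewer genes. Leaving out any 1 untreated sample brought Foxq1 above the filter through its BMP4 values; leaving out untreated replicate 2 also added Sox12, and untreated replicate 3 added Klf11 (adjusted p = 0.0419). The scalings moved the median of all genes by at most 0.0363 on the log2 scale. Without the variance trend, Foxm1 and Foxo4 were not called (adjusted p = 0.0521 and 0.0547). Genes higher in the whole table were 985 to 1419 with single samples left out, against 1487, and 985 without BMP4 replicate 1.

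The labels state no link between same-numbered samples, and the correlations of their deviations were -0.149, 0.05 and -0.221. Such values from 3 samples a group cannot tell whether the samples were paired. With the replicate block, which leaves fewer degrees of freedom, 15 members were called (12 higher, 3 lower), as were 994 genes higher and 1046 lower, 3 TEAD cofactors and Hippo genes higher and 2 lower, 0 SP factors and KLF partners lower, and 5 member transcripts higher and 0 lower.

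Small counts moved with other settings, and the cause was not tested. TEAD cofactors and Hippo genes lower were 2 after rescaling to equal sums and without the variance trend. With rescaling, FOXM1 targets higher were 5 and GATA cofactors higher 1. SP factors and KLF partners higher were 4 with no filter and 1 with the filter of at least 5 FPKM, which left 0 SOX9 targets higher. With single samples left out, TEAD cofactors and Hippo genes higher ranged from 3 to 5 and lower from 2 to 5, FOXM1 targets higher from 2 to 5 and GATA cofactors higher from 0 to 1. SP factors and KLF partners ranged from 1 to 2 higher and 0 to 1 lower, SOX9 targets higher from 0 to 1, and member transcripts from 5 to 8 higher and 1 to 2 lower.

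Differences near 0 changed sign. With single samples left out, the log2 difference of Foxn2 ranged from -0.0040 (without untreated replicate 1) to 0.12, of Foxo3 from -0.050 (without untreated replicate 1; -0.0016 without BMP4 replicate 2) to 0.067, of Tead2 from -0.073 to 0.11 (without untreated replicate 3; 0.064 without BMP4 replicate 1), and of Tead4 from -0.045 (without untreated replicate 1; -0.045 without BMP4 replicate 1) to 0.22. Tead2 was 0.032 after rescaling to equal sums. Depth is unknown and 3 samples a group limit the precision. Count-based alternatives were not run.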

Other observations

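Some relatives of the genes above were listed but lay below the filter on low values. Sp7, the osteoblast factor also called osterix, stood at 0.0285, 0.0303 and 0.0587 FPKM untreated and at 0.416, 0.689 and 0.540 FPKM with BMP4, and Sp6, a tooth and skin factor, at 0.401, 0.337 and 0.338 FPKM and at 0.733, 0.760 and 0.638 FPKM. The muscle ubiquitin ligase gene Trim63, a FOXO target, stood at 0.466, 0.483 and 0.651 FPKM untreated and at 1.49, 1.12 and 1.37 FPKM with BMP4. The BMP4 samples of all 3 genes lay above the untreated ones, as did those of 22.4% of all genes tested. That share covers only genes past the filter, and none is given for listed genes below it. Sp7 and Sp6 are listed through their BMP4 values, so they could hardly have been listed without being higher. The 3 genes were picked with their values in view, and levels this low carry an unknown number of reads.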
